A study of Homo sapiens with 4 samples.

Results

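The keratin gene clusters were examined in LNCaP cells, an androgen-sensitive human prostate cancer line, by ATAC-seq, an assay of open chromatin that sequences the DNA a transposase can reach. One condition was GSK2879552, which inhibits LSD1 (KDM1A), a histone demethylase, and the other was vehicle. The treatment text, which is the same for all 4 samples, gives 50 µM GSK2879552 for 4 hours in RPMI-1640 with 5% CSS, and the growth text gives 10% FBS. Each condition had 2 sequencing lanes, labelled as technical replicates, and 1 deposited peak list, named in the label of either lane. There was therefore 1 library per condition and no replicate check, so differences describe these 2 libraries, no test between conditions was made, and all intervals cover counting error only. Peaks were taken as members when their summit lay in the type II keratin interval, chromosome 12 from 52.55 to 53.36 Mb, or the type I keratin interval, chromosome 17 from 38.8 to 39.8 Mb, in 1-based hg19 coordinates. This gave 169 of the 163735 peaks of the GSK2879552 list and 187 of the 194551 peaks of the vehicle list. Within these intervals the positions of KRT8 and KRT18, KRT5, KRT19, and KRT14 and KRT17 are those the selection rule states, and no other hg19 gene position was used.

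Keratins build the intermediate filaments of epithelial cells from pairs of a type I and a type II protein. In the prostate epithelium KRT8 and KRT18 are the pair of the secretory luminal cells, while KRT5 pairs with KRT14 in basal cells. KRT17 is another type I keratin of basal and stressed epithelium, and KRT19 is a type I keratin of simple epithelia. KRT18 is a type I keratin by sequence but lies beside KRT8 at the end of the type II cluster. In the order of genes in the RefSeq annotation of GRCh38.p14, the type II cluster holds 27 protein-coding keratin genes, with KRT80 and KRT7 at the first end, KRT5 as number 13, and KRT8 and KRT18 as numbers 26 and 27. The type I cluster holds 28, and KRT19, KRT14 and KRT17 are numbers 24, 26 and 28.

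Of the 6 keratins named here, 2 had an entry in the RefSeq promoter table (build GRCh38.p14), KRT8 of the luminal and KRT5 of the basal pair, and both are shown, for a luminal and a basal type II keratin. Each runs from 250 bases before to 50 after an annotated transcript start, 5′ to 3′ on the gene's minus strand, at chr12:52926420-52926719 for KRT8 and chr12:52520345-52520644 for KRT5. Capitals mark matches to a motif. The table is of another build than the peak lists, so no peak was placed on these windows.
KRT8: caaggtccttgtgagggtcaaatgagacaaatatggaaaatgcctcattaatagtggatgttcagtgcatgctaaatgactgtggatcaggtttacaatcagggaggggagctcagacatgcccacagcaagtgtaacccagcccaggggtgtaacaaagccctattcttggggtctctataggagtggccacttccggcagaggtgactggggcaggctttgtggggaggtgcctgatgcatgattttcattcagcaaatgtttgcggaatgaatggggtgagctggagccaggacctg
KRT5: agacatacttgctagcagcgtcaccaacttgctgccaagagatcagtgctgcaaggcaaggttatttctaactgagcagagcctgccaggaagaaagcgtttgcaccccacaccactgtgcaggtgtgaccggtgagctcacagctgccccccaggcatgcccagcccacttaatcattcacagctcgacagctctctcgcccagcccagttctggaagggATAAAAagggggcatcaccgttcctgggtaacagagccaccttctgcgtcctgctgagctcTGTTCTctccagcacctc

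Both strands were searched for TATAAA (the box of many core promoters), ATAAAA (a variant of that box, contained in TATAAAA, added after the sequences were read), GGGCGG (GC box), TGANTCA (AP-1), GCCNNNGGC (AP-2), TGTTTAC (forkhead factors) and TGTTCT (a half-site of the androgen receptor). The KRT5 window held ATAAAA, with its first base 29 bases before the start, and TGTTCT, and these matches did not overlap. The KRT8 window held no match to any of them. It covers 1 annotated start of KRT8, which may not be its main one, and no other KRT8 start was searched. Of 35116 promoter windows of the same length, 16.0% held ATAAAA and 14.8% held TGTTCT. A match is a description of letters and not of a bound site.

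The values below are tags at a peak's summit, that is, the number of sequenced tags piled up there, recovered from the deposited fold and −log10 p. The lowest background in a list, its genome-wide level, was 2.72 tags with GSK2879552 and 2.31 tags with vehicle. If tag length and genome size were the same for both, the GSK2879552 library was 17.6% deeper. The scaled ratio is GSK2879552 tags over vehicle tags divided by 1.18, the ratio of these backgrounds. Peaks of the 2 lists were paired where exactly 1 overlapped exactly 1, by at least 1 bp. KRT8 and KRT18 have many processed pseudogene copies elsewhere in the genome, and no source used here says how the authors treated reads that map to several places.

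The luminal end of the type II cluster, where KRT8 and KRT18 lie, carried the strongest open chromatin of that cluster in both libraries. The interval, 53.285 to 53.355 Mb, held 12 GSK2879552 peaks and 14 vehicle peaks. All 3 of the strongest type II peaks of each list lay in it, and it held 3 of the 10 strongest in the GSK2879552 list and 4 of the 10 strongest in the vehicle list. The median peak of the interval carried 44.0 tags with GSK2879552 and 52.5 tags with vehicle. In the rest of the type II cluster the medians were 29.0 tags with GSK2879552 and 29.5 tags with vehicle.

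The strongest keratin cluster peak of either list was at chr12:53343372-53343924 in the GSK2879552 list, with 76 tags (exact 95% Poisson interval 59.9 to 95.1). In the vehicle list it was at chr12:53343294-53343988, with 95 tags (76.9 to 116). Its scaled ratio was 0.680 (exact binomial interval 0.497 to 0.930). The neighbouring pair, chr12:53342559-53343031 with GSK2879552 and chr12:53342533-53343044 with vehicle, carried 73 GSK2879552 tags and 88 vehicle tags, a scaled ratio of 0.706 (0.510 to 0.973). Another, weaker pair followed at chr12:53345978-53346087 with GSK2879552 and chr12:53345941-53346124 with vehicle, carrying 31 tags and 40 tags. Both strong peaks of this group were lower with GSK2879552 by about the ratio of all pairs in these libraries, given below.

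Another group of peaks lay nearer to the first end of the cluster. Its strongest peak, chr12:53298680-53299124 in the GSK2879552 list and chr12:53298675-53299126 in the vehicle list, carried 70 tags (54.6 to 88.4) with GSK2879552 and 94 tags (76.0 to 115) with vehicle. The scaled ratio was 0.633 (0.458 to 0.872). Beside it were 5 more pairs with 35 to 48 GSK2879552 tags and 48 to 61 vehicle tags. Among them, chr12:53297287-53297439 in the GSK2879552 list had the lowest ratio of the interval, 0.516 (0.333 to 0.789), from 37 GSK2879552 tags and 61 vehicle tags. Between both groups stood a single pair, at chr12:53321105-53321520 with GSK2879552 and chr12:53321025-53321520 with vehicle, with 52 tags and 68 tags and a scaled ratio of 0.650 (0.444 to 0.947). The last pair, chr12:53289634-53289788 in the GSK2879552 list, carried 22 GSK2879552 tags and 19 vehicle tags. It was the only pair of the interval with more tags in the GSK2879552 library before scaling, and its scaled ratio was 0.985 (0.509 to 1.92).

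**Figure D1:**
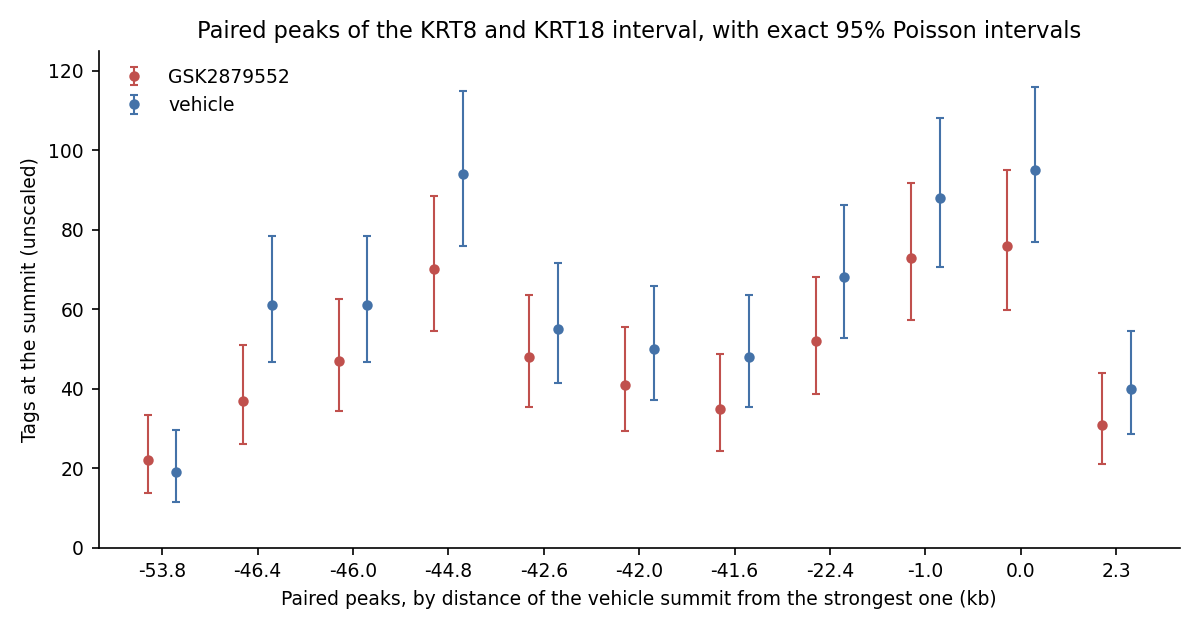
Tags at the summits (vertical axis, unscaled) of the 11 paired peaks in the KRT8 and KRT18 interval, GSK2879552 beside vehicle, placed in genome order by their distance in kb from the strongest vehicle summit; bars are exact 95% Poisson intervals. In 10 of the 11 pairs the GSK2879552 value lies under the vehicle value, and within each pair the intervals overlap.

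Over the 11 pairs of the KRT8 and KRT18 interval, 532 GSK2879552 tags against 679 vehicle tags had a scaled ratio of 0.666 (0.594 to 0.748). A pair was called lower when its scaled ratio was at or below 1/1.5 and higher when it was at or above 1.5. Called lower were 6 of the 11 pairs (54.5%), beside 45.7% of all 110134 pairs on chromosomes 1 to 22, X and Y. None was called higher, beside 0.172% of all pairs. The share called lower was thus near that of all pairs. The intervals of 7 of the 11 ratios lay below 1, and all 11 included 0.683, the scaled ratio summed over all pairs. The GSK2879552 peak was the narrower one in all 11 pairs, with a median width of 168 bp against 266 bp with vehicle; over all pairs it was narrower in 81.2%.

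In the luminal interval, 1 of 12 GSK2879552 peaks, or 8.33% (exact Clopper-Pearson 95% interval 0.211 to 38.5), stood in 1 list alone. So did 3 of 14 vehicle peaks, or 21.4% (4.66 to 50.8). Both intervals include the shares of all peaks given next, and the rest of the type II cluster had 11.3% and 31.4%. The GSK2879552 peak was chr12:53298291-53298441, with 31 tags over a local background of 11.37 tags. Its −log10 q was 4.16, and the nearest vehicle peak lay 233 bp away. Peaks without an overlapping partner made up 23.5% of the GSK2879552 list on the compared chromosomes. The vehicle list had 3 such peaks of 14, beside 38.5% of the vehicle list. They were chr12:53300861-53300971 with 39 tags, chr12:53289139-53289429 with 22 tags and chr12:53309539-53309642 with 16 tags. The nearest GSK2879552 peak lay 94 bp, 204 bp and 7378 bp away. The tags of the other library at such positions are not given by its list.

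The luminal end also stood on the highest local background of the clusters. The caller's background at a peak is the mean tag depth of its surroundings, taken here as a window of 10 kb. This background therefore counts the tags of the peak itself and of other peaks in the window. It was at least 10 tags at 10 of the 12 GSK2879552 peaks and 10 of the 14 vehicle peaks of the KRT8 and KRT18 interval, and at no other peak of either cluster. On chromosomes 1 to 22, X and Y, 3.92% of GSK2879552 peaks and 4.21% of vehicle peaks reached that level. Outside the interval the highest background was 8.43 tags with GSK2879552 and 8.77 tags with vehicle in the type II cluster, and 6.85 and 6.15 tags in the type I cluster. The fold that the authors' list gives at a summit is taken over this background. Within the GSK2879552 list the median fold was 3.62 in the interval and 4.31 in the rest of the clusters, and within the vehicle list it was 3.80 and 5.44. The order by fold was thus the reverse of the order by tags.

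The local background had scaled ratios under 1 at all 11 luminal pairs, with a median of 0.723. The median was 0.924 at the 73 pairs of the rest of both clusters that lay above the genome-wide level. These ratios are not separate from those at the summits, because each window holds the tags of its own peaks. At the pair with 70 GSK2879552 and 94 vehicle tags the 10 kb window held 1127 GSK2879552 tags and 1346 vehicle tags, a scaled ratio of 0.712 (0.657 to 0.771). At the pair with 76 and 95 tags it held 1068 and 1198 tags, a ratio of 0.758 (0.698 to 0.824). The 9 pairs whose scaled background averaged at least 10 tags over both libraries had ratios of 0.712 to 0.760, with a median of 0.719; these windows overlap and share tags. The other 2 luminal pairs, the first and the single one between the groups, had ratios of 0.912 (0.810 to 1.03) and 0.883 (0.782 to 0.998). The 4031 pairs at that level on all compared chromosomes had a median of 0.783 (interquartile range 0.731 to 0.862), and the 169 on chromosome 12 a median of 0.752 (0.719 to 0.795). The luminal median thus lay at the lower quartile of chromosome 12, and under that of all chromosomes, but above their 5th percentile of 0.671.

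The KRT5 interval, 52.89 to 52.93 Mb, held 1 GSK2879552 peak and 3 vehicle peaks. Its highest summits, of 10 GSK2879552 tags and 28 vehicle tags, were lower than those of the other named keratin intervals. Within 50 kb instead of 20 kb of the stated KRT5 position there were 7 GSK2879552 peaks and 9 vehicle peaks. The single pair carried 10 GSK2879552 tags (4.80 to 18.4), at chr12:52900859-52901092, and 28 vehicle tags (18.6 to 40.5), at chr12:52900934-52901140. Its scaled ratio of 0.304 (0.132 to 0.644) was the lowest of the 109 pairs in both clusters, and the only one whose interval did not include 0.683. The GSK2879552 peak is close to the listing limit, with a −log10 q of 1.89 and 1 tag more than the smallest listed summit, and both summits lay 149 bp apart. It is given as the lowest of 109 values and was not tested. The other vehicle peaks, chr12:52902505-52902640 with 18 tags and chr12:52915088-52915187 with 17 tags, had no GSK2879552 peak within 1412 bp and 13995 bp.

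**Figure D2:**
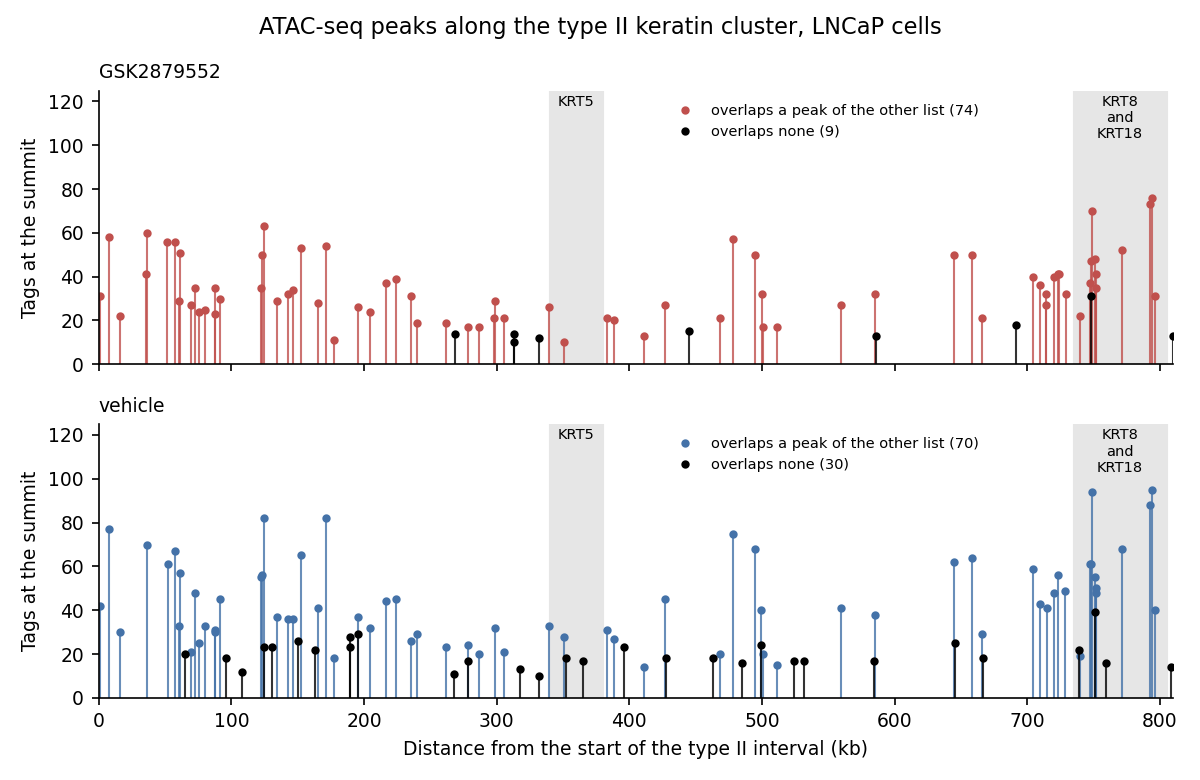
Peaks along the type II cluster, with GSK2879552 in the upper panel and vehicle in the lower: each stem is a peak at its distance in kb from the start of the interval, and its height is the tags at the summit (unscaled). Black stems overlap no peak of the other list, grey bands are the KRT5 and the KRT8 and KRT18 intervals, and the tallest stems of both panels stand in the KRT8 and KRT18 band.

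Along its whole length the type II cluster had more peaks per 100 kb at both ends than between them; this division was drawn after the values were seen. The first 200 kb, the end of KRT80 and KRT7 in gene order, held 27 GSK2879552 peaks and 36 vehicle peaks, or 13.5 and 18 per 100 kb, with medians of 34.0 and 34.5 tags. The next 500 kb, which include KRT5, held 35 GSK2879552 peaks and 43 vehicle peaks, or 7.0 and 8.6 per 100 kb, with medians of 21.0 and 24.0 tags. The last 110 kb, with KRT8 and KRT18, held 21 peaks in each list, or 19.1 per 100 kb, with medians of 40 tags with GSK2879552 and 49.0 tags with vehicle. The strongest peaks of the first segment reached 63 tags with GSK2879552 and 82 tags with vehicle. In that first segment none of the 27 GSK2879552 peaks stood alone, beside 23.5% of all GSK2879552 peaks, and 10 of the 36 vehicle peaks did, beside 38.5% of all vehicle peaks. The 27 peaks were mostly strong: only chr12:52727226-52727335 had a −log10 q under 5, at 2.03. Of all GSK2879552 peaks that reached 5, only 4.53% stood alone. The lack of lone GSK2879552 peaks thus does not set this end apart from peaks of like strength.

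Among type II pairs whose tags summed to at least 40, the lowest scaled ratio was 0.510 (0.304 to 0.840). It came from 27 GSK2879552 tags at chr12:52976777-52977068 and 45 vehicle tags at chr12:52976809-52977114. The pair chr12:52672368-52672568 followed the luminal pair named above, with 35 GSK2879552 and 55 vehicle tags and a ratio of 0.541 (0.344 to 0.842). The highest was 1.09 (0.596 to 2.03), at chr12:52619591-52619778 in the GSK2879552 list, from 27 GSK2879552 and 21 vehicle tags. Next were chr12:52785527-52785691 at 1.01 (0.583 to 1.78) and chr12:52637956-52638133 at 0.992 (0.592 to 1.67). All 3 of the highest ratios have intervals that include both 1 and 0.683.

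Peaks of 1 list in the type II cluster were mostly vehicle peaks. The strongest outside the luminal interval were chr12:52745065-52745252 with 29 vehicle tags, 182 bp from a GSK2879552 peak, and chr12:52739579-52739940 with 28 vehicle tags, 5494 bp from one. The strongest GSK2879552-only peaks outside the interval had 18 tags at chr12:53241495-53241606 and 15 tags at chr12:52994733-52994886. In all, 9 of 83 GSK2879552 peaks, or 10.8% (exact Clopper-Pearson 95% interval 5.08 to 19.6), and 30 of 100 vehicle peaks, or 30.0% (21.2 to 40), had no partner. The interval of the first share lies below the 23.5% of all GSK2879552 peaks, and that of the second includes the 38.5% of all vehicle peaks. By strength, the intervals of the GSK2879552 share include the shares of all peaks: the share was 1.52% (0.0384 to 8.16) at a −log10 q of at least 5, beside 4.53% of all, and 47.1% (23 to 72.2) under it, beside 55.6%.

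The type I cluster held weaker peaks, and the genome-wide background applied to more of them. Its 86 GSK2879552 peaks had a median of 15 tags and its 87 vehicle peaks a median of 19 tags. It applied to 53.5% of the GSK2879552 peaks and 50.6% of the vehicle peaks, against 4.82% and 5.00% in the type II cluster. On chromosome 17 as a whole it applied to 16.1% of the GSK2879552 peaks. Over all compared chromosomes it applied to 38.4% of GSK2879552 peaks and 40.3% of vehicle peaks, between the shares of both clusters. The strongest peaks lay far from KRT19, KRT14 and KRT17. At chr17:39059889-39060208 the GSK2879552 list had 71 tags (55.5 to 89.6), and at chr17:39059871-39060231 the vehicle list had 77 tags (60.8 to 96.2). The second, at chr17:39368246-39368679 with GSK2879552 and chr17:39368224-39368704 with vehicle, carried 53 tags and 77 tags. Next were chr17:38959895-38960127 with 49 tags in the GSK2879552 list and chr17:38974997-38975469 with 68 tags in the vehicle list.

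Around KRT19, 39.66 to 39.70 Mb, the GSK2879552 list held 2 peaks and the vehicle list 5. The pair at chr17:39667525-39667688 with GSK2879552 and chr17:39667134-39667724 with vehicle carried 25 tags and 26 tags, and the vehicle peak was 591 bp wide against 164 bp with GSK2879552. Its scaled ratio, 0.818 (0.453 to 1.47), was the highest among type I pairs with at least 40 tags. The other pair, chr17:39692317-39692599 with GSK2879552 and chr17:39692357-39692641 with vehicle, carried 27 tags and 32 tags, a ratio of 0.718 (0.414 to 1.24). The 3 vehicle peaks without a partner carried 21, 21 and 17 tags, at chr17:39676232-39676371, chr17:39686512-39686657 and chr17:39693355-39693464. No summit near KRT19 exceeded 27 GSK2879552 tags or 32 vehicle tags, where the medians near KRT8 and KRT18, keratins of the same simple epithelia, were 44.0 and 52.5 tags.

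In the KRT14 and KRT17 interval, 39.725 to 39.785 Mb, the GSK2879552 list held 2 peaks and the vehicle list 4. The stronger pair, chr17:39735782-39736086 with GSK2879552 and chr17:39735788-39736129 with vehicle, carried 47 tags (34.5 to 62.5) and 57 tags (43.2 to 73.9), a scaled ratio of 0.701 (0.466 to 1.05). The other pair, chr17:39739464-39739661 with GSK2879552 and chr17:39739447-39739701 with vehicle, carried 30 tags and 42 tags, a ratio of 0.608 (0.367 to 0.994). The vehicle peaks chr17:39771805-39771921 with 23 tags and chr17:39756633-39756810 with 13 tags had no partner. Both pairs lay at the end of the interval that comes first in genome order, where KRT14 precedes KRT17, and the rest of the interval held vehicle peaks only.

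Over the KRT5, KRT19 and KRT14 to KRT17 intervals together, the GSK2879552 list held 5 peaks, all with an overlapping vehicle peak, and the vehicle list held 12, of which 7 had no GSK2879552 partner. Those 7 carried 13 to 23 tags. Scaled up by the 1.18 of the depths, this equals 15.3 to 27.0 GSK2879552 tags, without the scaled ratio of 0.683 seen over all pairs. Most of the 7 lay above the genome-wide background, where a peak needs more tags to be listed. Whether such summits would have been listed is therefore not known, and what the library held there is not given. The count of 7 of 12 stands beside 38.5% of vehicle peaks without a partner on the compared chromosomes. Taken singly, the shares had exact 95% intervals of 9.43 to 99.2% (KRT5), 14.7 to 94.7% (KRT19) and 6.76 to 93.2% (KRT14 and KRT17). Each includes 38.5%, but intervals this wide, from 3, 5 and 4 vehicle peaks, cannot decide whether there was an excess. The shares themselves all lay above 38.5%.

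**Figure D3:**
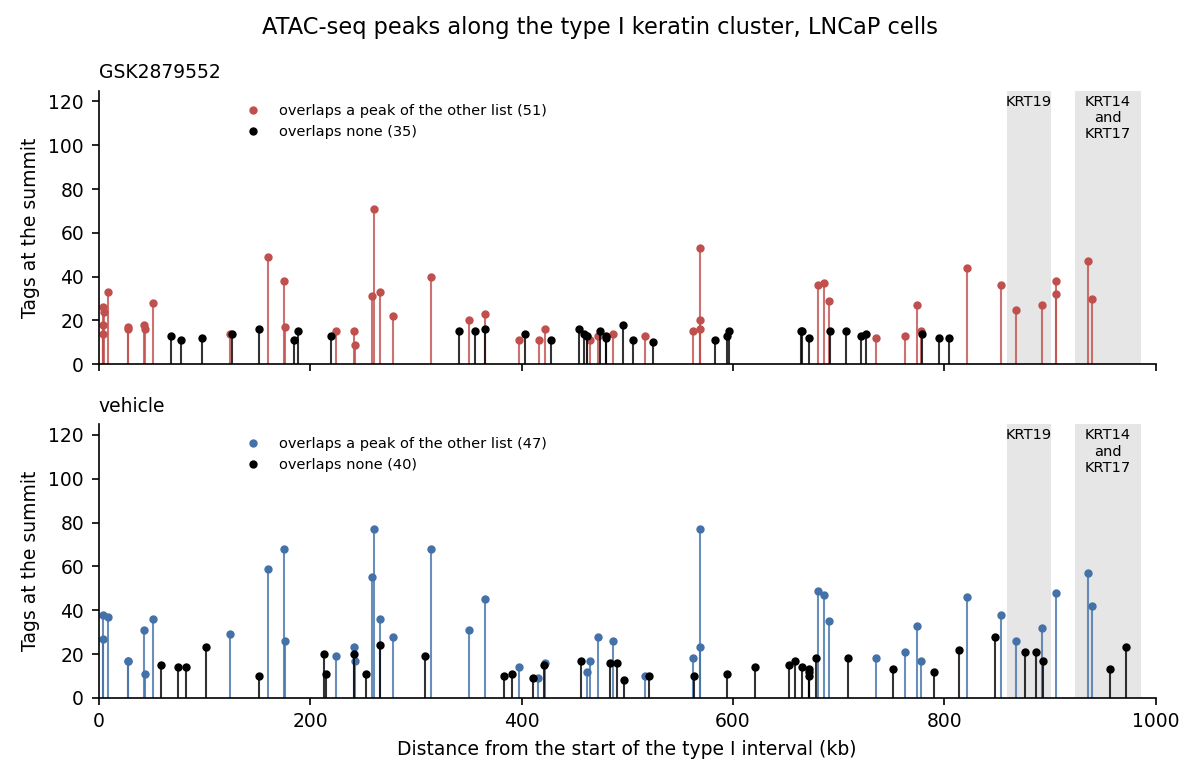
Peaks along the type I cluster, GSK2879552 above and vehicle below: each stem is a peak at its distance in kb from the start of the interval, with the tags at its summit (unscaled) as height. Black stems overlap no peak of the other list, grey bands are the KRT19 and the KRT14 and KRT17 intervals, and black stems are spread through the middle of the cluster in both panels.

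The type I cluster had nearly as many GSK2879552 peaks as vehicle peaks, 86 against 87, a ratio of 0.989, where chromosome 17 as a whole had 0.848 and the type II cluster 0.830. Among peaks with a −log10 q of at least 5, the numbers were 45 with GSK2879552 and 64 with vehicle. All compared chromosomes held 101402 and 143829 such peaks. The covered length of the type I cluster was still smaller, 15.2 kb with GSK2879552 and 18.8 kb with vehicle, a ratio of 0.809. Peaks of 1 list were common on both sides. No vehicle peak overlapped 35 of the 86 GSK2879552 peaks, or 40.7% (30.2 to 51.8), beside 23.5% of all GSK2879552 peaks and 17.2% of those on chromosome 17. No GSK2879552 peak overlapped 40 of the 87 vehicle peaks, or 46.0% (35.2 to 57), beside 38.5% of all. The GSK2879552-only peaks carried 10 to 18 tags and the vehicle-only peaks 8 to 28 tags. Among GSK2879552 peaks with a −log10 q of at least 5, 9 of 45, or 20% (9.58 to 34.6), had no vehicle partner, beside 4.53% over all compared chromosomes. Under that level the share was 63.4% (46.9 to 77.9), beside 55.6%.

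The strongest of these GSK2879552-only type I peaks was chr17:39296138-39296403 with 18 tags, and a vehicle peak lay 213 bp away. Next were chr17:38951389-38951536 and chr17:39164973-39165136 with 16 tags each, 37 bp and 462 bp from a vehicle peak. The strongest vehicle-only peaks were chr17:39647631-39647802 with 28 tags, chr17:39066228-39066393 with 24 tags and chr17:38901667-38902070 with 23 tags. The nearest GSK2879552 peaks lay 5262 bp, 374 bp and 3429 bp away. Within the 100 kb from 39.2 to 39.3 Mb, 9 of 15 GSK2879552 peaks and 6 of 12 vehicle peaks had no partner, beside 23.5% of all GSK2879552 and 38.5% of all vehicle peaks. This step was picked after its values were seen, and in it no summit exceeded 18 GSK2879552 tags or 28 vehicle tags.

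Where type I peaks were paired, tags were lower with GSK2879552 after scaling. The 43 pairs summed to 1073 GSK2879552 tags and 1418 vehicle tags, a scaled ratio of 0.644 (0.594 to 0.697). The lowest ratios among pairs with at least 40 tags were 0.395 (0.188 to 0.788) at chr17:39272767-39272866, 0.411 (0.201 to 0.802) at chr17:38924624-38924725 and 0.435 (0.251 to 0.734) at chr17:39165588-39165832, in the GSK2879552 list. They came from 13, 14 and 23 GSK2879552 tags and 28, 29 and 45 vehicle tags. After the KRT19 pair above, the highest ratios were 0.814 (0.526 to 1.26) at chr17:39621041-39621326 and 0.806 (0.496 to 1.31) at chr17:39653065-39653351. Called lower were 19 of the 43 type I pairs (44.2%), and in the type II cluster 34 of 66 (51.5%), both near the 45.7% of all pairs.

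**Figure D4:**
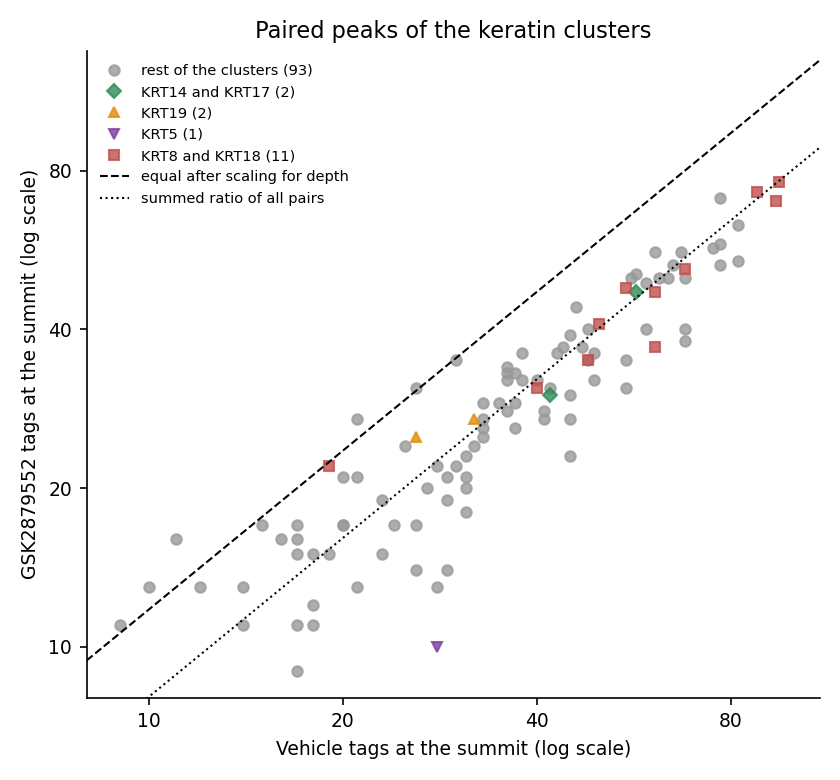
Tags at paired summits of both clusters, vehicle on the horizontal and GSK2879552 on the vertical axis (both log scale), 1 point per pair, with the number of pairs per interval in the legend. Points of the KRT8 and KRT18 interval, with ratios of 0.516 to 0.985, lie on both sides of the dotted line. That line is the ratio summed over all pairs, 0.683, and the KRT5 pair lies below it, at 10 GSK2879552 and 28 vehicle tags.

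Set against the rest of the clusters, the luminal end had more tags per peak in both libraries, and its ratio between conditions was close to that of the rest. Peaks numbered 17.1 per 100 kb with GSK2879552 (exact Poisson interval 8.86 to 29.9) and 20 with vehicle (10.9 to 33.6) in the KRT8 and KRT18 interval. In the rest of both clusters they numbered 9.02 (7.67 to 10.5) and 9.94 (8.52 to 11.5), and over all compared chromosomes 5.37 and 6.37. The intervals of the luminal end and of the rest overlapped in both lists. Peaks covered 4.47% of the luminal interval with GSK2879552 and 6.13% with vehicle, and 1.76% and 2.34% of the rest. The scaled ratio of tags at paired summits was 0.666 (0.594 to 0.748) at the luminal end and 0.660 (0.628 to 0.693) in the 98 pairs of the rest. The median scaled log2 ratios were -0.60 and -0.58, and that of all pairs was -0.56. Called lower were 47 of the 98 pairs of the rest (48.0%), beside 45.7% of all pairs. The difference between the luminal end and the rest in the ratio was thus smaller than the counting error of either.

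Over both clusters together, 104 of 109 pairs had fewer GSK2879552 than vehicle tags after scaling and 96 of 109 before it. Their 3385 GSK2879552 tags and 4355 vehicle tags gave a scaled ratio of 0.661 (0.632 to 0.692), beside 0.675 (0.671 to 0.680) on chromosome 12, 0.687 (0.683 to 0.692) on chromosome 17 and 0.683 on all compared chromosomes. The interval of the clusters included the value of each. Called lower were 53 of 109 pairs (48.6%), beside 45.7% of all pairs, and none was called higher, beside 0.172%. Paired summits lay close together, 17 bp apart at the median, and 94 of 109 lay within 50 bp.

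**Figure D5:**
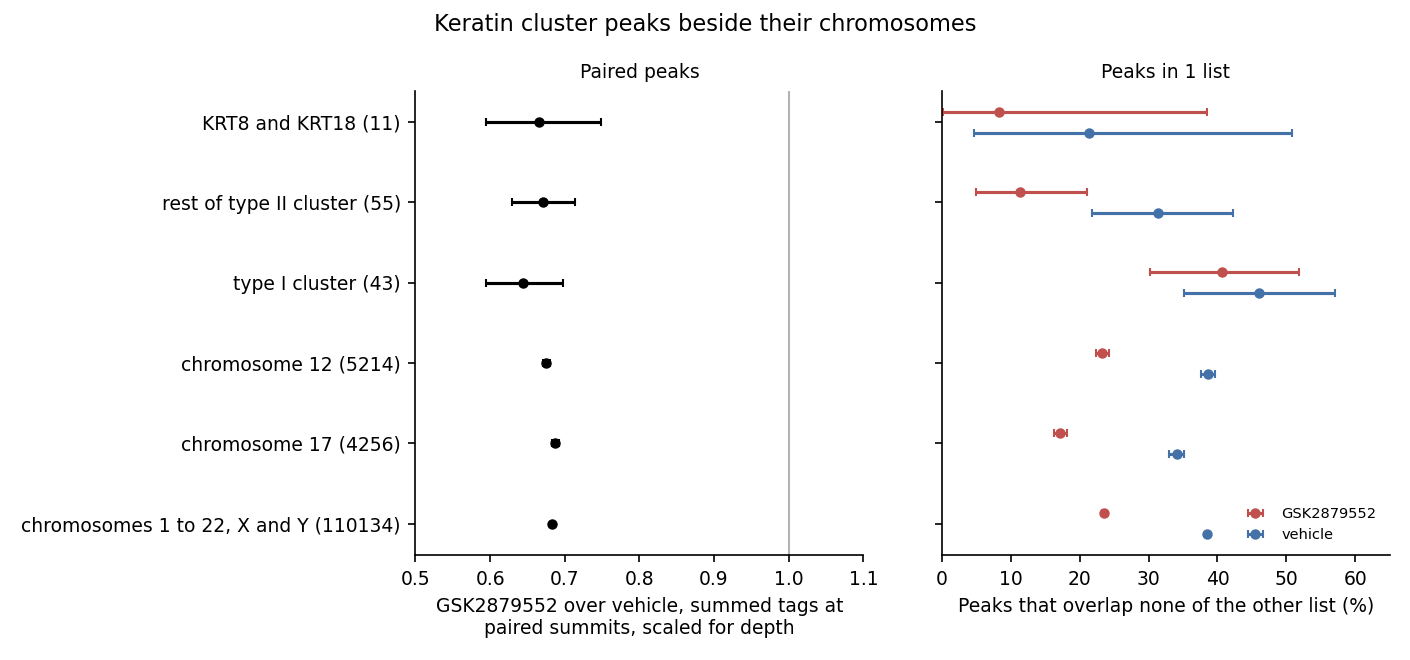
Left, the scaled ratio of summed tags at paired summits with its exact 95% binomial interval, with the number of pairs in brackets; right, the percentage of each list's peaks that overlap no peak of the other, with exact 95% intervals, GSK2879552 above vehicle in each row. The 3 keratin rows lie between 0.644 and 0.671 on the left, and on the right the type I cluster has the highest shares in both lists, 40.7% and 46.0%.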

How the data were processed

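Both deposited peak lists, 1 per condition, were used. The submitters' processing notes name hg19 (GRCh37), BWA 0.7.2, SAMtools 0.1.18 and MACS2 2.1.2. No source used here says whether duplicates were removed, which mapping filters applied, or whether tags were shifted to the cut site. The lists were deposited by the authors with a score, a fold (the ratio of summit tags to background, each with 1 added), a −log10 p and a −log10 q per peak, as the values show; the score and −log10 values were used to rank or filter within a list.

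Tags were recovered as the whole number that gives the deposited fold and the −log10 p, the −log10 p within 0.001, for 100% of rows of both lists; 5000 simulated peaks were recovered in 100% of cases. Backgrounds above the lowest were multiples of 0.01, the step of 100 bp tags over 10 kb, so a background divided by 0.01 was read as tags in 10 kb. The total depth per library is not given. No member summit exceeded 95 tags; 1 tag per position and strand would allow 200.

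Intervals the selection rule gives with 2 decimals were widened by 5 kb on each side, and single positions by 20 kb. A pair belongs to a region when either summit lies in it. Regions were named by rule: all pairs of the KRT8 and KRT18 interval, all peaks of the other intervals, and per cluster the 3 strongest peaks, the 3 strongest of 1 list, and the 3 lowest and highest ratios among pairs with at least 40 tags. Members, intervals and rules were chosen with earlier results of these data known. Shares have Clopper-Pearson and tags Poisson exact 95% intervals; distances count the bases between peaks. Densities over all chromosomes use the span between their outermost peaks. The search for promoters, the 10 kb windows, the strength split and the segments were added after the lists were seen. Python 3.11.15, NumPy 2.4.6, pandas 2.3.3, SciPy 1.17.1 and Matplotlib 3.10.9 were used.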

Additional observations from a re-analysis of the deposited data

How the results depend on the processing

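No paired analysis was possible because each condition had 1 peak list, its lanes being technical replicates, and for the same reason no replicate could be left out. Of 104 alternative values for 26 results, 81 stayed within their counting interval or within 1.5 times the count, and 23 moved. No ratio turned its direction, while shares and peak numbers have no direction to turn. With a reciprocal overlap of 50%, the share of cluster peaks with a partner fell to 57.4% of GSK2879552 peaks, against 74.0%, and to 51.9% of vehicle peaks, against 62.6%; outside the luminal interval the vehicle share fell to 50.3%, against 61.3%. Among peaks whose −log10 q reached 5 the GSK2879552 share was 90.1%, the type I cluster held 45 GSK2879552 peaks and the KRT5 interval 0. At that level the type I cluster held 64 vehicle peaks, so the near equality of 86 and 87 peaks rests on weak peaks. All compared chromosomes held 101402 GSK2879552 and 143829 vehicle peaks at that level. It falls at different tag numbers in libraries of unlike depth. With intervals as written and single positions widened by 50 kb, which is wider by construction, KRT5 held 7 GSK2879552 and 9 vehicle peaks, and KRT19 held 5 and 8. Without scaling for depth the ratios of summed tags were 0.777 (both clusters), 0.787 (type II), 0.757 (type I), 0.784 (luminal interval) and 0.776 (rest of both clusters), and the median log2 ratios -0.35, -0.35, -0.35, -0.37 and -0.35. With background tags subtracted the ratio was 0.630 for both clusters and 0.627 for the rest, and the median for both clusters -0.65. The cause of these changes was not tested, except where the construction shows it. Low depth limits single pairs most: the intervals of 75 of 109 ratios include 1.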
